A study of Nothobranchius furzeri with 15 samples.

Results

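A set of 29 genes stood higher in every rotenone-treated liver than in every control liver, at both doses used. They were chosen by the measured values themselves. A gene entered when the lowest of its 10 rotenone libraries lay above the highest of its 5 DMSO libraries, when its values at the lower and the higher dose overlapped, and when its mean over the 15 libraries was at most 1000 CPM (read counts per 1000000 counts of the library, with the library size corrected by TMM factors). Of 26739 gene identifiers, 15834 passed the filter on low counts, and 29 of those met the rule. The ceiling and the overlap condition removed no gene, since all 29 genes separated upward met both. The mirrored rule found 153 genes in which every rotenone library lay below every DMSO library.

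The animals were 9-week-old males of the GRZ strain of the turquoise killifish, Nothobranchius furzeri, an annual fish used in ageing research for its short life. DMSO, the solvent, was the perturbation named for the controls, rotenone at 15 pM for the low-dose group and rotenone at 150 pM for the high-dose group, with 5 liver libraries each. Libraries carry the numbers of their titles, 1 to 5 for DMSO and for 15 pM and 8 to 12 for 150 pM. How long and by which route the fish were exposed, the DMSO concentration, the tanks and whether each library came from a separate fish are not stated in the labels, so calls measure only the spread between these libraries, which may be technical.

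Rotenone blocks complex I, the enzyme through which electrons from NADH enter the mitochondrial respiratory chain. A block there slows the oxidation of NADH and can raise the leak of electrons to oxygen. Liver cells are rich in mitochondria, and they also carry the enzymes that clear foreign compounds. The files hold bare identifiers, and 0 of the 26739 were found among the 38438 genes of the reference table, so no role can be given for any member, and the tissue could not be checked against marker genes. The members are therefore numbered 1 to 29 by falling mean CPM, and 2 of them are also given by identifier. In bulk tissue a change in RNA per cell and a change in the number of cells that hold it cannot be told apart.

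Library totals ran from 22185038 to 35672589 counts, and TMM factors from 0.864 to 1.15. Library 4 of 15 pM stood apart from the rest: its median correlation of log2 CPM with its own group was 0.855, against 0.936 to 0.972 for the other 14 libraries. Libraries 8 and 10 of 150 pM both exceeded the remaining 3 high-dose libraries by 4-fold or more in 164 of the 15834 genes, and 0 of the 29 members were among these. At so small a share few or none of the 29 would be among them, so nothing is read from the 0.

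The rise was modest in most members, and much larger in a few. In the edgeR fit, 4 members (7, 19, 22 and 27) were at least 2-fold above DMSO at both doses, or 13.8%, beside 1.28% of all genes. A further 14 were under 1.5-fold at both, and 11 lay between. Member 27 had an SE of 0.70 at both doses, and its DMSO libraries all lay under the filter's limit of 0.376 CPM. The median log2 fold change of the 29 was 0.57 at 15 pM and 0.55 at 150 pM, beside 0.03 and 0.01 over all 15834 genes. The rule fixes the direction of these values, and both comparisons share the same DMSO libraries. At 15 pM the members ranged from 0.18 to 2.39 and at 150 pM from 0.13 to 3.599 on the log2 scale. In the genes of the mirrored rule the medians were -2.18 and -2.44, so the genes that separated downward did so by more. Their median CPM was 3.03, beside 9.74 over the members, and abundance was not matched between the sets.

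**Figure D1:**
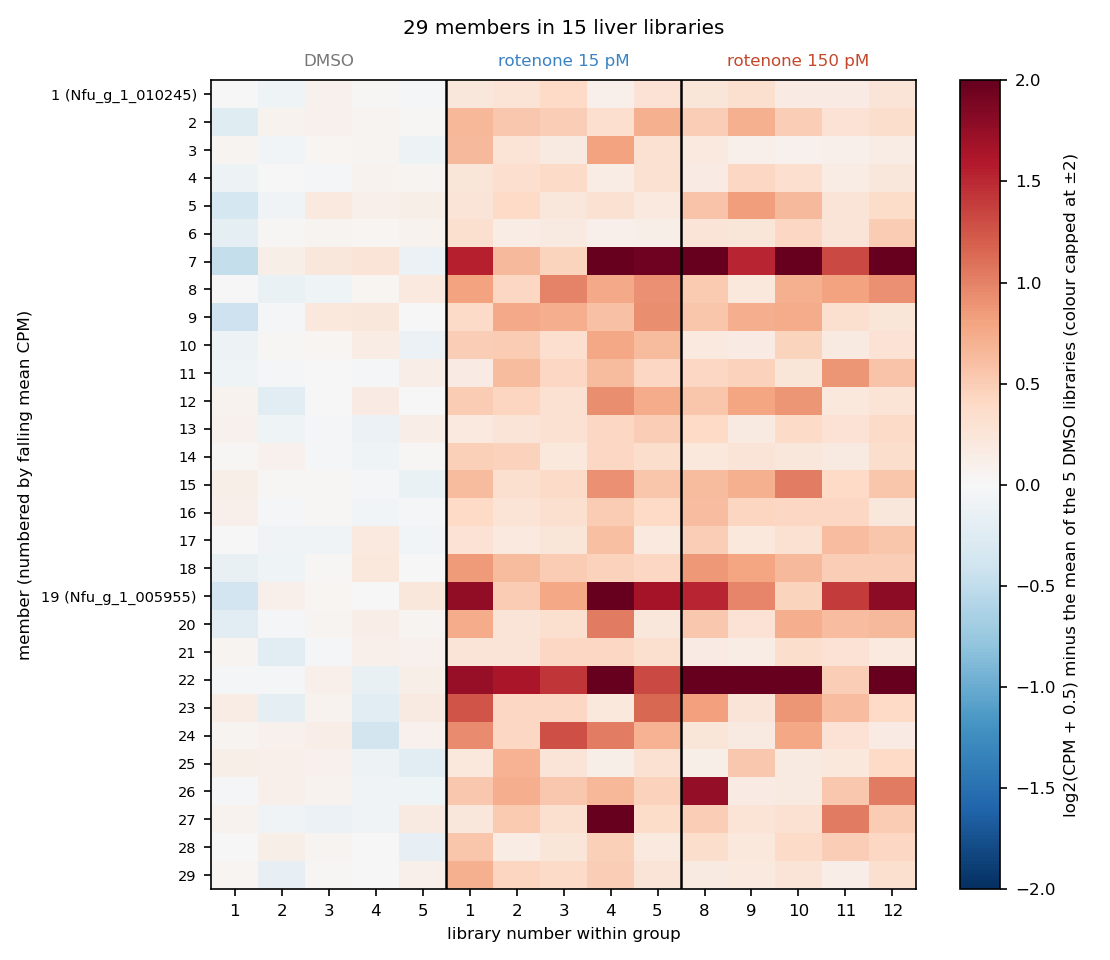
Each row is a member and each column a liver library, and colour gives log2(CPM + 0.5) minus the mean of the 5 DMSO libraries, capped at 2 either way. Members 7, 19 and 22 hold the darkest rows, member 27 is dark in library 4 of 15 pM, and most other rows are pale red throughout the 10 rotenone columns.

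Member 22 had the largest fitted rise of the set at 150 pM, and at 15 pM its fitted rise and that of member 27 differed by far less than their errors. Its DMSO libraries 1 to 5 held 0.537, 0.521, 0.627, 0.444 and 0.636 CPM, from 22, 14, 16, 12 and 16 counts. At 15 pM libraries 1 to 5 held 3.03, 2.76, 2.33, 4.33 and 2.12 CPM. At 150 pM libraries 8 to 12 held 5.68, 7.36, 14.9, 0.979 and 4.76 CPM. The low dose was even across its libraries, whereas at the high dose library 11 was the lowest of the 10 rotenone libraries and library 10 was the highest of all 15. The fitted log2 fold change was 2.39 (SE 0.50) at 15 pM and 3.599 (SE 0.52) at 150 pM (n = 5 per group). This gene also had the widest gap in the set, with its lowest rotenone library 1.54 times its highest DMSO library.

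Member 7 took more reads, and its rise was also uneven between livers. DMSO libraries 1 to 5 held 4.71, 7.37, 7.99, 8.21 and 6.20 CPM. With 15 pM the same numbers held 20.9, 10.9, 9.42, 42.0 and 27.4 CPM, and with 150 pM libraries 8 to 12 held 33.01, 20.5, 43.6, 17.6 and 38.9 CPM. Libraries 2 and 3 of 15 pM lay close to the control range, and the others were at least 2-fold above the highest control value. The group means were 6.90 ± 1.45, 22.12 ± 13.35 and 30.71 ± 11.33 CPM (SD, n = 5 each), and the fitted log2 fold changes were 1.68 (SE 0.38) and 2.16 (SE 0.39).

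Member 19, Nfu_g_1_005955, had the widest gap among members with a mean of at least 5 CPM. In DMSO libraries 1 to 5 it stood at 1.85, 2.79, 2.66, 2.59 and 3.10 CPM. At 15 pM it stood at 9.996, 3.86, 4.73, 14.1 and 9.25 CPM, and at 150 pM, from library 8 to 12, at 8.32, 5.53, 3.69, 7.58 and 10.1 CPM. As in member 7, libraries 2 and 3 were the lowest of the low dose and library 4 the highest, but at the high dose library 10 was here the lowest. Its log2 fold change was 1.69 (SE 0.34) at 15 pM and 1.44 (SE 0.34) at 150 pM.

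Member 27 owed much of its size at the low dose to a single library. Its counts were 12, 6, 5, 6 and 9 in DMSO libraries 1 to 5, then 10, 16, 11, 134 and 13 at 15 pM, and 14, 10, 13, 29 and 14 at 150 pM. Library 4 of 15 pM reached 4.96 CPM, while the other 4 libraries of that dose lay between 0.383 and 0.589 CPM and DMSO between 0.196 and 0.358 CPM. The fitted log2 fold change of 2.39 (SE 0.70) at 15 pM thus averaged 4 smaller rises and a much larger one. At 150 pM it was 1.22 (SE 0.70).

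**Figure D2:**
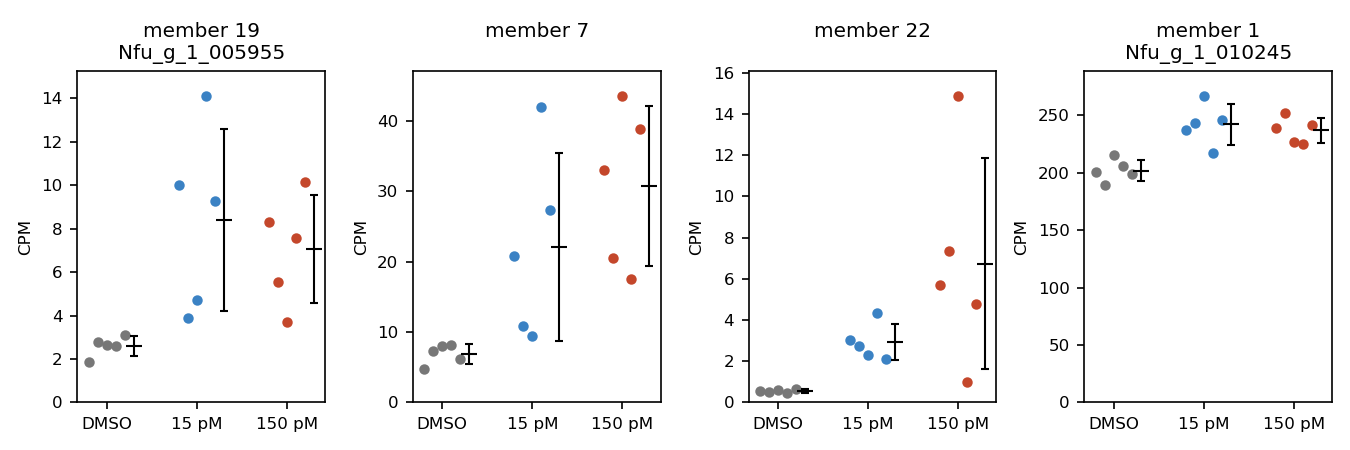
CPM of members 19, 7, 22 and 1 in every library (points) with the mean and SD of the 5 libraries of a group (black bars), on linear axes that start at 0. The 3 members with large rises spread widely under rotenone, and member 1 keeps a narrow spread in all groups.

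Member 1, Nfu_g_1_010245, had the highest mean CPM of the set and the highest level per kilobase, 155 CPM per kb over a recovered length of 1467 bases. DMSO libraries 1 to 5 held 200.7, 189.5, 215.0, 205.5 and 198.7 CPM. At 15 pM the values were 237.2, 243.4, 266.9, 217.2 and 245.5 CPM, and at 150 pM, from library 8 to 12, 238.7, 251.8, 227.0, 225.3 and 241.1 CPM. Library 4 of 15 pM came within 1.01 times the highest control, and the rise was 0.26 (SE 0.10) and 0.23 (SE 0.10) on the log2 scale.

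Member 2 was the next by mean CPM and cleared the controls more widely, with group means of 113 ± 9.86, 165 ± 16.7 and 157 ± 18.2 CPM (SD, n = 5 each). Its lowest rotenone library was 1.15 times its highest DMSO library. Members 15 and 18, at means of 9.74 and 6.56 CPM, had gaps of 1.16 and 1.16 times, and their log2 fold changes lay between 0.61 and 0.72 at both doses. Within DMSO the median SD of log2 CPM was 0.14 over the members and 0.26 over all genes, and within 150 pM it was 0.18 and 0.31. Within 15 pM these medians were 0.21 and 0.44, and without library 4 they were 0.20 and 0.30. A rule that asks for no overlap favours genes of low spread, so nothing is read from these differences.

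Many members only just met the rule. The lowest rotenone library was on the median 1.04 times the highest DMSO library, and in 17 of the 29 it was less than 5% above it. In member 5 the values were 39.141 and 39.134 CPM, a ratio of 1.0002, and members 25 and 9 followed at 1.002 and 1.003. Just outside the rule, 3 genes had ratios of 0.9974, 0.9973 and 0.9932, and 36 genes came within 5% of entering. DMSO libraries 4 and 5 set the upper control value in 10 and 9 of the 29 members, beside 21.1% and 13.5% of all genes. On the rotenone side the lowest value was spread over libraries, with 5 members each in libraries 9 and 11 of 150 pM and 4 each in libraries 4 and 5 of 15 pM.

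Member 3 was at the edge of the overlap condition. At 15 pM its libraries 1 to 5 held 68.2, 52.4, 49.2, 75.7 and 53.5 CPM. At 150 pM libraries 8 to 12 held 49.5, 46.6, 45.8, 46.4 and 48.2 CPM, so that only library 8 reached the low-dose range. DMSO lay between 40.5 and 45.0 CPM. Its log2 fold change was 0.47 (SE 0.12) at 15 pM and 0.13 (SE 0.12) at 150 pM, the smallest high-dose rise of the set.

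In the test across all genes (edgeR quasi-likelihood, adjusted p under 0.05), 15 of the 29 members were called higher at 15 pM, beside 0.524% of all genes, and 14 at 150 pM, beside 2.13%. At both doses 9 were called, beside 0.0884% of all genes, and these were 31.0% of the members and 64.3% of the 14 genes called higher at both. A further 6 members were called only at 15 pM, 5 only at 150 pM and 9 at neither. The rule used the same comparisons, and nothing is read from these counts. For comparison, 1.67% of all genes had their 15 pM libraries wholly above DMSO, 5.08% had their 150 pM libraries wholly above it, and 0.183% had all 10. Calls among the same 29 members depended on single libraries, and so did those over all genes. With every library in, 83 genes were called higher at 15 pM and 338 at 150 pM. At 15 pM there were 7 members without DMSO library 2 (27 over all genes) and 9 without DMSO library 4 or 5 (49 and 34). At 150 pM leaving out DMSO library 1, 2, 3, 4 or 5 gave 6, 4, 7, 9 and 9 calls. Over all genes the calls were then 163, 64, 139, 162 and 146. Leaving out high-dose library 8, 10, 11 or 12 gave 8, 9, 8 and 7 (148, 140, 284 and 238). Without 150 pM libraries 8 and 10 together, 5 were called at that dose (77 over all genes). In the 10 libraries of each comparison alone, 7 were called at 15 pM and 17 at 150 pM (36 and 750). Without 15 pM library 4 the calls rose to 19 at 15 pM and 18 at 150 pM (289 and 893). DESeq2 called 22 and 21 (405 and 928).

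**Figure D3:**
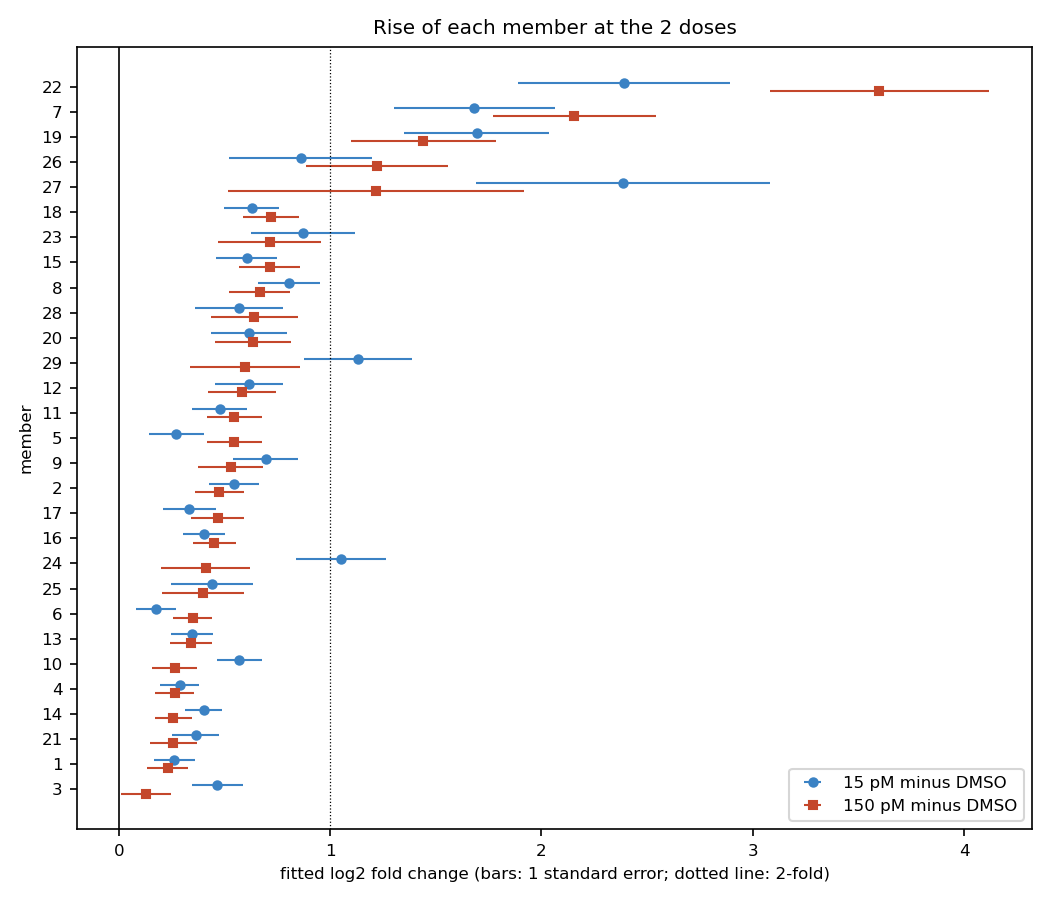
Fitted log2 fold change of each member against DMSO at 15 pM (blue circles) and 150 pM (red squares), with 1 standard error, ordered by the value at 150 pM. All points lie above 0, as the rule requires, and most lie between 0 and 1, with the bars of both doses overlapping in most members.

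From 15 to 150 pM the members did not move in a common direction. The fit placed the high dose above the low dose in 12 members and below it in 17, with a median log2 difference of -0.03, beside -0.03 over all genes. The quartiles of the members were -0.16 and 0.09. EdgeR called 0 of the 29 between the doses, beside 14.1% of all genes. At an unadjusted edgeR p under 0.05 there were 4 members, beside 4864 of all 15834 genes. Limma voom called 0 members and 1852 genes in all, and DESeq2 3 and 3314. EdgeR called 2 of the same members when 15 pM library 2, 15 pM library 3 or 150 pM library 10 was left out. Over all genes it then called 1923, 2377 and 1563. Without 150 pM library 11 it called 1 member, and 1749 over all genes. The rule asks that the doses overlap, and that condition removed no gene here. But the rule also asks both doses to lie above DMSO, which keeps out genes high at 1 dose only. The count is thus shaped by the choice and is given as a description.

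The extremes of the dose difference were members 22 and 27. Member 22 was higher at 150 pM by a log2 difference of 1.21 (SE 0.46), and member 27 lower by -1.17 (SE 0.65), with its low-dose mean raised by library 4. Member 24 also stood lower at the high dose, by -0.64 (SE 0.21). Its group means were 1.98 ± 0.323, 4.10 ± 1.04 and 2.62 ± 0.607 CPM (SD, n = 5 each). Member 26 was uneven at 150 pM, where library 8 reached 3.88 CPM, library 12 reached 2.16 CPM, and libraries 9 to 11 ranged from 0.957 to 1.38 CPM. Its DMSO libraries ranged from 0.716 to 0.893 CPM.

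Members 25 to 29 were scarce. Member 29 had the lowest counts, 10, 4, 6, 6 and 7 in DMSO libraries 1 to 5, 18, 13, 11, 14 and 10 at 15 pM, and 8, 8, 11, 8 and 10 at 150 pM. Such counts carry a large counting error: the highest DMSO library, at 0.278 CPM, and the lowest rotenone library, at 0.290 CPM, differed by less than 1 count is worth. No member had 0 counts in any library. In all, 5 had fewer than 20 counts in some library, members 22, 26, 27, 28 and 29. In 2 members every DMSO library lay under the filter's limit of 0.376 CPM, so that these passed the filter through the rotenone libraries.

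Length was not used by the rule, while abundance entered it through the filter on low counts, the ceiling and the high rotenone values. Mean CPM per kilobase had a median of 4.28 over the members, beside 2.89 over all genes, and ran from 0.234 to 155. Those with a mean of 1 to 10 CPM made up 41.4% of the members and 44.3% of all genes. Gene lengths recovered for all 29 had a median of 3115 bases and quartiles of 1338 and 3910 bases, beside 2812 bases and quartiles of 1401 and 4886 bases over all genes. The shortest member measured 253 bases and the longest 10311 bases. The 153 genes of the mirrored rule had a median length of 2187 bases.

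Members varied within the groups too. After group means were removed, the correlation of a member with the mean of the other members over the 15 libraries had a median of 0.23, beside 0.03 for all other genes against the same mean. It was above 0 in 22 of the 29, or 75.9%, beside 51.8% of the other genes. It was above 0.5 in 6, or 20.7%, beside 19.4% of the other genes. The 6 were members 3, 7, 10, 12, 15 and 20, picked out here after their values were seen. Each had its highest low-dose value in library 4 of 15 pM, and without that library 3 of them stayed above 0.5. In all, library 4 was the highest of its group in 13 members and the lowest in 6, beside 35.3% and 35.7% of all genes. Without library 4 of 15 pM the median correlation was 0.17, beside 0.01 for the other genes. The first component of the deviations (the single pattern over libraries that holds most variance) took 26.5% of the variance in the members. Over all genes, a far larger set, it took 32.2%. Libraries share depth, scaling and origin, and these values are a description.

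Libraries were also left out of the rule, to view them in genes chosen without them. A DMSO and a rotenone library were left out together, genes were chosen by the rule on the other 13, and the left-out pair was compared in those genes. Over the 50 such pairs between 35 and 164 genes were chosen, each set larger than the 29 members. The left-out rotenone library was higher than the left-out DMSO library in a median of 79.1% of them, beside 48.6% of all genes, and the share exceeded that of all genes in 47 of 50 pairs. By dose the median share was 71.4% at 15 pM and 81.2% at 150 pM. The median log2 difference in the chosen genes was 0.22 and 0.28. At 15 pM without the pairs of library 4 these medians were 76.2% and 0.25. With unchanged TMM factors, any of the 29 members chosen again counted as higher whichever pair was left out. The share thus depends in part on how many other genes were chosen, and it is no test of the 29. The pairs reuse the same 15 libraries and are not independent. Where the filter and the TMM factors drew on all 15 libraries, the left-out pair was not fully outside the choice. This comparison was added after the data had been seen.

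The exceptions all involved library 4 of 15 pM. In its 5 pairs 77 to 164 genes were chosen, and it was higher than the left-out DMSO library in 28.7% to 58.5% of them, beside 45.1% to 48.7% of all genes. In the other 20 pairs of the low dose the share ran from 64.5% to 97.8%, and in the 25 pairs of the high dose from 55.4% to 94.3%. For library 4 the median share was 47.7%, beside 47.5% of all genes. Its sets were larger than those of the other low-dose pairs, at 40 to 76 genes, and of the high-dose pairs, at 35 to 74. Over the 29 members, chosen with library 4 in, its median log2 value over DMSO was 0.58, the highest of the 15 libraries.

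**Figure D4:**
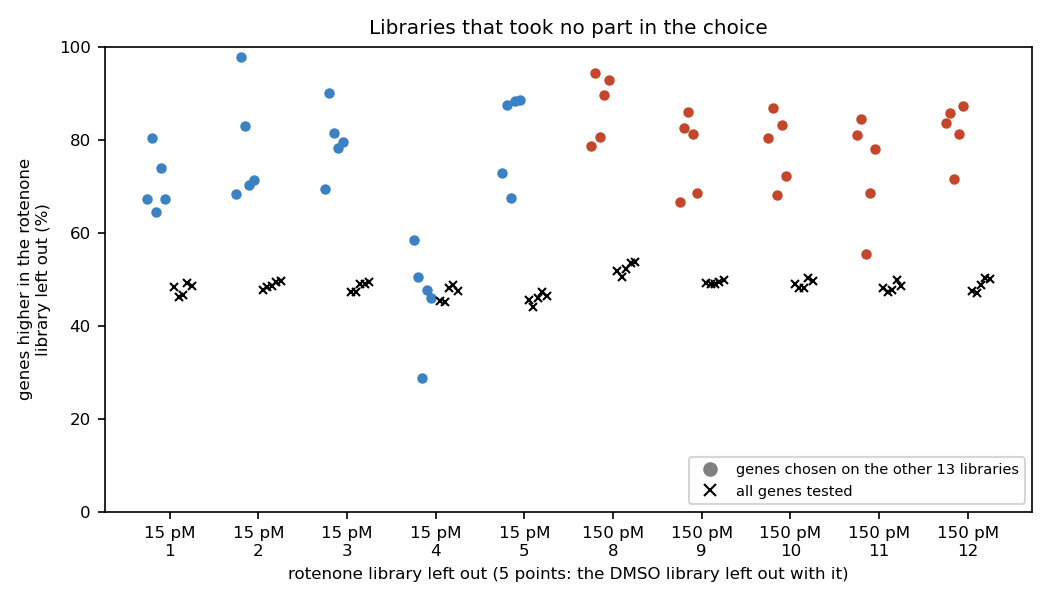
Share of genes that were higher in the left-out rotenone library than in the left-out DMSO library, for each of the 10 rotenone libraries paired with each of the 5 DMSO libraries. Coloured circles are the genes chosen on the other 13 libraries and crosses all genes tested, and library 4 of 15 pM is the column where they meet.

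The size of the set followed single libraries and the scaling. Without library 4 of 15 pM 67 genes met the rule, without DMSO library 3 it was 64 and without DMSO library 4 it was 53. Leaving out a library drops a condition, which by itself lets more genes in. With 15 pM library 4 and 150 pM libraries 8 and 10 all left out, 156 genes met the rule, 26 of them among the 29. With library totals in place of TMM factors, 9 genes met it, 8 of them among the 29. Under those totals the 15 pM libraries cleared DMSO in 14 of the 29 members and the 150 pM libraries in 11. The matching shares of all genes under library totals are not given here, so nothing is read from the 14 and 11. All 29 members were fitted higher than DMSO at both doses with TMM, RLE and upper-quartile factors and with library totals. The rule had chosen them for this direction in the same counts, so nothing is read from it.

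Over 21 settings that chose the genes anew (other scalings and filters, length trends removed, and each library left out), 5 members met the rule every time. These were members 2, 7, 11, 18 and 19. A further 9 members missed it in a single setting, among them member 27, and member 22 missed it in 2. Members 3, 10 and 25 met the rule in 2, 3 and 1 of the 21 settings. This tally does not measure the rise. Leaving out a library, as 15 of the settings did, drops a condition, which by itself makes the rule easier to meet apart from the dose overlap. The filter and the TMM factors were also computed anew in each of those 15 settings. A miss can come from changed factors, from the filter or from the dose overlap. Member 22 missed the filter of 1 CPM in 10 libraries.

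**Figure D5:**
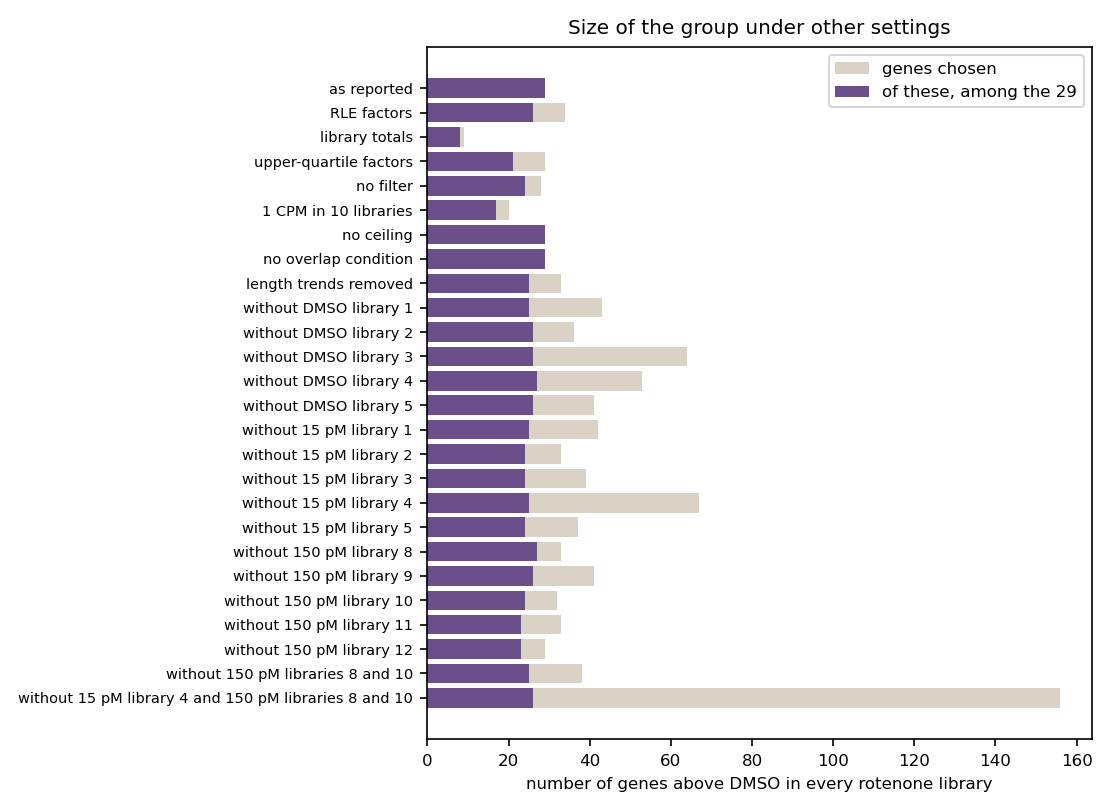
Number of genes that met the rule under each setting (pale bars), and how many of them were among the 29 (dark bars). The bar for library totals is the shortest at 9 genes, and the longest, at 156, leaves out 15 pM library 4 and 150 pM libraries 8 and 10.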

How the data were processed

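Per the labels' protocols, total liver RNA was made into libraries with the TruSeq RNA kit v2. Tools named in the submitters' processing notes are STAR 2.4.1d, featureCounts 1.4.6-p4 and CASAVA 1.8.2; what each was used for, the genome build and the annotation are not stated there. The authors deposited whole-number read counts per gene, with no normalization, and these were used throughout. Genes that overlap or share reads with a near-identical copy are uncertain. The deposited RPKM values had been divided by library totals recycled down the gene rows (this gave 1 length within 0.2% for 100% of 105783 values with over 200 counts and an RPKM over 2), so they served only to recover gene lengths.

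Counts were filtered with filterByExpr (minimum count 10), scaled with TMM and tested by quasi-likelihood in edgeR 4.0.16 (two-sided, R 4.3.3), with all 15 libraries in 1 fit, 1 mean per group and Benjamini-Hochberg adjustment over 15834 genes at 0.05. The code was tested on simulated counts. No library was counted as a copy, since the chi-square per degree of freedom of the 30 within-group pairs was 46.7 to 853. Alternatives were RLE, upper-quartile and no scaling factors, other filters, DESeq2 1.42.0, limma voom (limma 3.58.1), libraries left out and a replicate block. The members, lists and tests were chosen with earlier results of these data known. Identifiers named are the member of at least 5 CPM with the widest gap and the member with the highest mean CPM. Prepared gene lists could not be applied without symbols.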

Additional observations from a re-analysis of the deposited data

Results flagged for a closer look

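Each of the 29 members was examined for a library far from the other 4 of its group, with Dixon's ratio (gap to the nearest library over the group's range, limit 0.71). Of 87 groups of 5 libraries, 8 passed the limit. Chance alone flags about 1 in 20 groups, but that rate does not apply here. The rule that chose the members tends to remove genes with a far-high DMSO library or a far-low rotenone library, which shapes both the number of such libraries and their direction. In library 4 of 15 pM, member 27 reached 4.96 CPM, with the next at 0.589 CPM, and member 17 reached 9.85 CPM, with the next at 7.85 CPM. In library 2 of 15 pM, member 25 stood at 2.21 CPM, above 1.57 CPM. At 150 pM, member 24 stood at 3.69 CPM in library 10, above 2.50 CPM, and member 27 at 1.051 CPM in library 11, above 0.570 CPM. In DMSO the libraries found were low ones: member 2 at 95.7 CPM and member 6 at 17.8 CPM in library 1, below 115 and 20.6 CPM, and member 24 at 1.41 CPM in library 4, below 2.05 CPM.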

How the results depend on the processing

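The fitted log2 fold changes of Nfu_g_1_005955 and Nfu_g_1_010245 at each dose moved by less than the SD between the libraries of that dose in every setting run. For Nfu_g_1_005955, whose libraries spread widely, this is a loose limit. Its values ran from 1.45 to 1.92 at 15 pM and from 1.26 to 1.63 at 150 pM. Those of Nfu_g_1_010245 ran from 0.20 to 0.35 and from 0.21 to 0.30. No value changed sign, but the rule had chosen both genes for that sign in the same counts. The number of genes meeting the rule was 9 with library totals and 156 without 15 pM library 4 and 150 pM libraries 8 and 10, and 29 to 67 without single libraries. Counts of calls below are over the genes that met the rule anew in each setting, unless the same 29 members are named. At 15 pM, library totals gave 3 of 9 (24 genes rose in the whole table) and leaving out those 3 libraries 81 of 156 (379 in the whole table). The 10 libraries alone gave 7 of the same 29 (36 in the whole table). Without single libraries there were 8 to 41 calls, and 7 to 19 of the same 29 (27 to 289 in the whole table). At 150 pM, library totals gave 5 of 9 (137 genes rose in the whole table), a filter of 1 CPM in 10 libraries 9 of 20 (182), leaving out libraries 8 and 10 gave 6 of 38 (77), and leaving out those 3 libraries 61 of 156 (536). Without libraries 8 and 10, 5 of the same 29 were called. Without single libraries there were 4 to 49 calls, and 4 to 18 of the same 29 (64 to 893 in the whole table). Between the doses, RLE factors gave 1 of 34 (2258 genes differed in the whole table). The filter of 1 CPM in 10 libraries gave 1 of 20 (1948). DESeq2 gave 3 of the same 29 (3314), and leaving out single libraries gave 0 to 2 (1521 to 2400).

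The median log2 fold change at 15 pM, over genes chosen anew, was 0.80 with library totals, 0.46 without libraries 8 and 10, 0.45 without those 3 libraries, and 0.51 to 0.69 without single libraries. Over the same 29 members these medians were 0.52, 0.60, 0.56 and 0.53 to 0.65. At 150 pM the median was 1.16 with library totals over the 9 genes chosen anew and 0.54 over the same 29, and 0.48 to 0.63 without single libraries. For the counts the cause was not tested.

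DMSO and 15 pM libraries share the numbers 1 to 5. Deviations of same-numbered libraries correlated above 0.1 in 0 of 5 pairs (-0.053 to 0.091), and 0 of the 5 correlated best with their own number, so the numbers were not taken as pairs. With them as a replicate block, 0 of the 29 members were called at 15 pM, and 1 gene rose in the whole table.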
